A study of Homo sapiens with 4 samples.

Results

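The SW780 arm of this study set 1 RNA library of SW780 cells with SCD1 knocked down by lentivirus (labelled SW780-shSCD1) beside 1 library of SW780 cells labelled SW780-shNT, whose genotype is given as WT. SW780 is a human bladder cancer cell line, grown here in DMEM with fetal bovine serum and antibiotics. All genes with at least 1 CPM (counts of a gene per 1e6 reads in that library) in either library were taken, which gave 12880 of the 17752 genes in the SW780 table and of 32485 genes in the tables of both cell lines. The second line, UMUC3, was grown in MEM and also had 1 library labelled shNT and 1 labelled shSCD1. The labels do not say how many cultures, clones or hairpins stand behind a library. With 1 library a group there was no replicate check and no test, so "higher" and "lower" describe these 2 libraries alone, and the intervals given are exact Clopper-Pearson 95% intervals that cover counting error only. The deposited columns name the libraries only as first and second, and every direction would turn if they stood the other way.

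Stearoyl-CoA desaturase, the enzyme that SCD encodes and that is often called SCD1, puts a double bond into saturated fatty acids and so makes the monounsaturated fatty acids of membranes and stored lipids. Its gene is a target of the SREBP factors, which also drive fatty acid and cholesterol synthesis. Urothelial cells, from which bladder cancers arise, make uroplakins, keratins and water, urea and ion transporters as they differentiate towards the lumen.

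Reads over the genes of the table numbered 34087871 for shNT and 25549737 for shSCD1. Epithelial markers of the urothelium were present in both, with KRT7 at 4880 and 4430 CPM, KRT8 at 2163 and 1676 CPM, EPCAM at 76.5 and 105 CPM and GATA3 at 280 and 238 CPM (shNT first, as throughout). Markers of other cell types were mixed. DCN, COL1A2, PDGFRB and THY1 of fibroblasts and TEK of endothelium had 0 reads in both libraries, while CDH5 of endothelium had 33 and 22 reads, PTPRC of leukocytes 3 and 0, and HBB of red cells 0 and 1. Summed over the members that reached 1 CPM, 3 endothelial markers held 19.3 and 16.1 CPM, 2 blood cell markers 19.6 and 13.8, 4 adipocyte markers 695 and 301, most of it FABP4, and 9 fibroblast and smooth muscle markers 249 and 389.

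SCD (ENSG00000099194; chromosome 10, 100347124 to 100364834, plus strand, hg38) was counted with 20178 reads under shNT and 2353 under shSCD1, or 592 and 92.1 CPM. This is 6.43-fold lower (interval 6.16 to 6.71), a log2 ratio of -2.67. Fewer cells carrying the transcript and less transcript per cell cannot be told apart in such bulk RNA. All log2 ratios are of CPM plus 1, shSCD1 over shNT, which understates the change of genes with few reads. SCD5, the other human stearoyl-CoA desaturase gene, stood at 13.1 and 16.1 CPM (log2 ratio 0.28).

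Most genes differed little between the libraries. The median log2 ratio was -0.0079, the quartiles were -0.162 and 0.158, and 91.2% were within 1.5-fold. Reaching 2-fold on this scale, in either direction, is called the size rule here. It was passed by 191 genes that were higher in the shSCD1 library (1.48%) and 136 that were lower (1.06%). Those shares are the background for the counts within gene groups given from here on. Of the 327, 61 had at least 25% of their exonic bases in exons of another gene, against 9.36% of the 12880, and reads of such pairs cannot be told apart here without knowing how they were counted.

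The 20 genes with the highest and the 20 with the lowest ratios at 5 CPM or more had varied roles. VIM, the intermediate filament protein vimentin of mesenchymal cells, had 21 and 281 reads, 17.9-fold higher (11.5 to 29.3), with 24.4% of its exonic bases in exons of other genes. GULP1, an adaptor of phagocytic engulfment, had 64 and 415 reads, 8.65-fold higher (6.64 to 11.4), and RXFP1, a relaxin receptor, had 38 and 257 reads (log2 ratio 2.39). IL20RB, a receptor subunit for cytokines of the IL-20 group, had 123 and 422 reads (log2 ratio 1.93). RASGRP1, a guanine nucleotide exchange factor for Ras, had 163 and 477 reads (1.77). SPC24, a kinetochore subunit, had 267 and 792 reads (1.86), and SAA1, an acute-phase protein, had 30 and 128 reads (1.68). All of these had under 10 CPM in the shNT library.

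At the low end, SNX31, a sorting nexin of urothelial cells, had 1923 and 183 reads, 7.88-fold lower (6.77 to 9.22). CLCA4, a member of the family of chloride channel accessory proteins, had 1682 and 170 reads, 7.42-fold lower (6.33 to 8.74). HS6ST2, a heparan sulfate 6-O-sulfotransferase, had 1689 and 368 reads (-1.71), and PLSCR4, of the phospholipid scramblase family, had 623 and 125 reads (-1.71). ZDBF2, an imprinted gene, had 555 and 81 reads (-2.05). Of these, SNX31 belongs to the urothelial list and CLCA4 to the secretory list, both described with their counts further on.

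**Figure D1:**
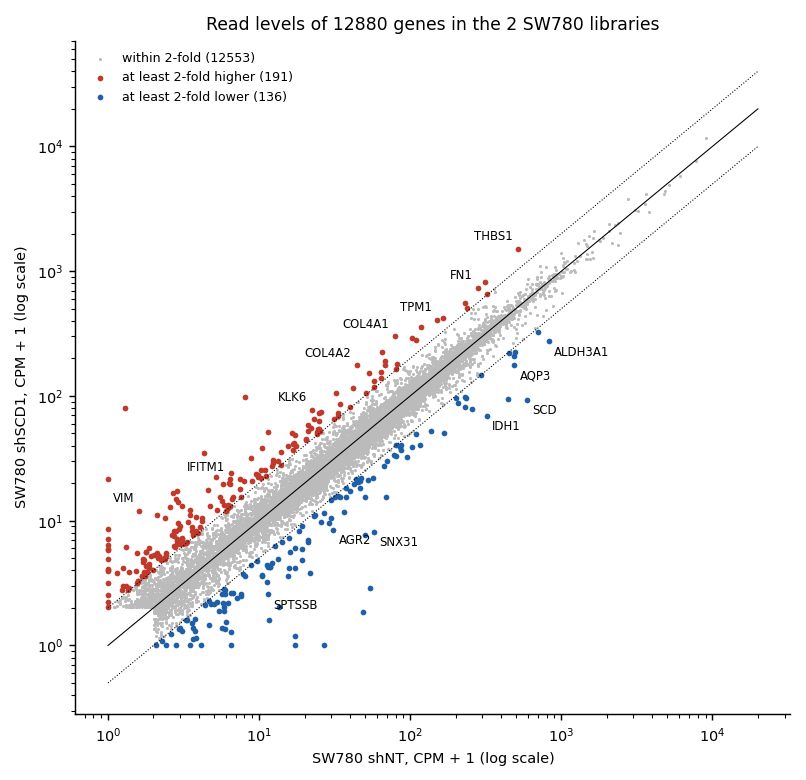
Levels of the 12880 genes in the SW780 shNT library (horizontal) and the shSCD1 library (vertical), as CPM + 1 on log axes, 1 point a gene. The solid line is equality and the dotted lines are 2-fold; 191 genes (red) lie at or above the upper line and 136 (blue) at or below the lower, with SCD at 592 and 92.1 CPM.

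Of the 62 gene lists examined, interferon-stimulated genes had the highest median and the most members past the size rule on the higher side, and a like share of the mesenchymal list, described further on, was higher. Interferons bind receptors that activate a complex with STAT2 and IRF9, which binds the interferon-stimulated response element in the promoters of antiviral genes. Of 42 measured members 11 were past the size rule and higher (26.2%), none was lower, 40 had ratios above 0, and the median was 0.80. IFITM1, a membrane protein that hinders virus entry, had 5.46 CPM under shNT and 20.6 under shSCD1, 3.77-fold higher (3.18 to 4.48), although 32.5% of its exonic bases are shared with another gene. EPSTI1, an interferon-induced gene of epithelial cells, had 15.6 and 49.8 CPM, 3.19-fold higher (2.88 to 3.53). MX2, a dynamin-like antiviral GTPase, had 67.4 and 175 CPM, 2.60-fold higher (2.47 to 2.73). The intervals of all 3 lay clear of equality, but the 3 were named for the size of their ratios, so this is no separate support.

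Members of the upstream pathway differed less. Among 29 measured sensing and signalling genes 1 passed the size rule, IFIH1, the cytosolic double-stranded RNA sensor, with 38.9 and 81.3 CPM (log2 ratio 1.05). STAT2 stood at 124 and 144 CPM (0.21) and IRF1 at 149 and 161 (0.11). In MHC class I presentation NLRC5, the transactivator of those genes, was the 1 of 22 members past the size rule, with a list median of 0.22. Among checkpoint and recognition ligands 2 of 22 were higher by the size rule: LGALS9, which encodes galectin-9, with 23.7 and 61.4 CPM (1.33), and NT5E, the ecto-nucleotidase CD73, with 32.2 and 71.5 CPM (1.12). CD274, which encodes PD-L1, stood at 5.16 and 10.2 CPM (0.86).

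The letters GAAANNGAAA, the core of the interferon-stimulated response element, were sought on either strand in the 250 bases before each RefSeq gene start (GRCh38.p14). They occurred in 3.02% of all 35116 promoter windows and in 358 of the 10411 kept genes that matched a window (3.44%). Of those 358 genes, 17 were higher by the size rule (4.75%, against 1.29% of the matched genes) and 1 was lower. The 17 include 8 members of the interferon-stimulated list already counted above, and the motif was chosen after values were seen. This share is therefore no separate support. Of the 34 matched interferon-stimulated genes, the 23 that held the letters included 8 past the size rule and had a median log2 ratio of 0.87, and the 11 that did not included 0 and had a median of 0.38. The remaining 8 matched no window. Stretches of 6 promoters are printed to show the element beside genes that were higher and beside 1 that was not; each ends at the base before the gene start, and the capitals mark the matched letters on the gene's strand, or their reverse complement where the match is on the other strand.

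IFITM1 (chr11:313920-314039, plus strand): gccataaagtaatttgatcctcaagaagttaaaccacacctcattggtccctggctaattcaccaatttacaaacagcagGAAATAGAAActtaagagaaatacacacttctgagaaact
EPSTI1 (chr13:42992242-42992361, minus strand): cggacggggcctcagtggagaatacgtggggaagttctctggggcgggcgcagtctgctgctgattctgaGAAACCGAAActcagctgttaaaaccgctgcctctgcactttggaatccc
IFI27 (chr14:94110608-94110735, plus strand): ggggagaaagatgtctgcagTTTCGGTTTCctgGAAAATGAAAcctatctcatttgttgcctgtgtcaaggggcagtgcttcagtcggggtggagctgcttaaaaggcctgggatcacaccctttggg
IFIT1 (chr10:89392487-89392622, plus strand): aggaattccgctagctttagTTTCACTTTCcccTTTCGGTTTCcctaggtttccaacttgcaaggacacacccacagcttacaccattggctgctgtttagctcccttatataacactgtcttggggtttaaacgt
RSAD2 (chr2:6877612-6877776, plus strand): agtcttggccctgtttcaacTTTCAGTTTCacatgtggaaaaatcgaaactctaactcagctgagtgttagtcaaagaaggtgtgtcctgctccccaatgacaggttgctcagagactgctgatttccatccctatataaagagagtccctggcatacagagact
SAMD9 (chr7:93117980-93118135, minus strand): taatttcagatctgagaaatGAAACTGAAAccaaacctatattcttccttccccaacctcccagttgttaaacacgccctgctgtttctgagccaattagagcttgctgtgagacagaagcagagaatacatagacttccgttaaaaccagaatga

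IFI27 and IFIT1 hold 2 matches each in these stretches. IFI27 had 165 and 424 CPM (log2 ratio 1.36), IFIT1 had 62.9 and 138 (1.12) and RSAD2, which encodes viperin, had 23.4 and 48.5 (1.02). SAMD9, an antiviral factor, holds a match and stood at 649 and 635 CPM (-0.03). A match is a description of the letters, not of binding.

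**Figure D2:**
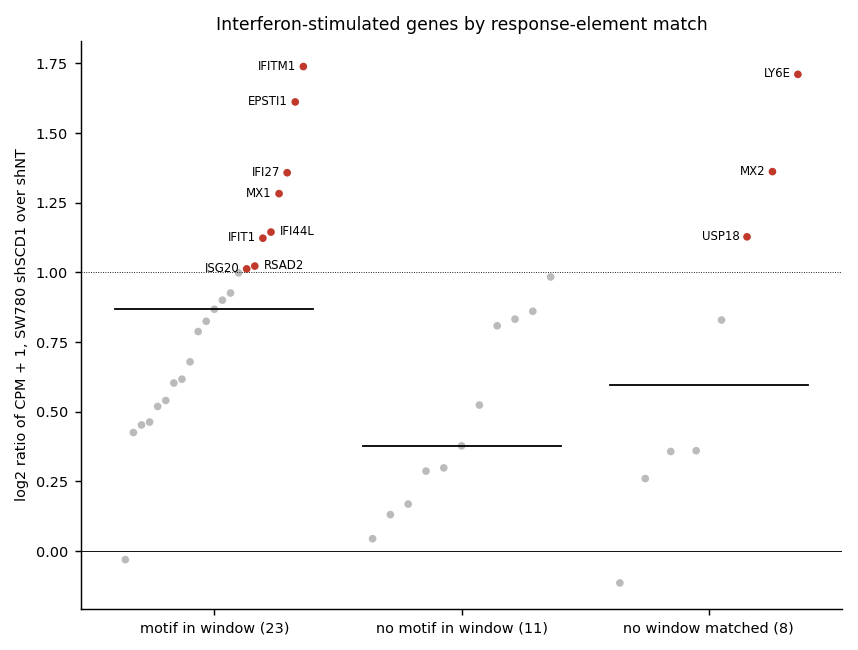
Log2 ratios (vertical, CPM + 1, SW780 shSCD1 over shNT) of 42 interferon-stimulated genes, 1 point a gene, by whether a promoter window held the response-element letters; the long bars are medians, 0.868 in 23 genes with a match and 0.378 in 11 without. Red points passed the size rule, and they include 3 of the 8 genes with no matched window.

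The other 13 motifs searched the same way were the sterol regulatory element (TCACNCCAC), the CArG box, a SMAD repeat (CAGACAGAC), TEAD (GGAATG), AP-1 (TGACTCA or TGAGTCA), HNF1 (GTTAATNATTA), the CCAAT box (CCAAT), the STAT element (TTCNNNGAA), the antioxidant response element (TGACNNNGC), the PPAR response element (AGGTCANAGGTCA), E2F (TTTCCCGC), CHR (TTTGAA) and KLF (GGGTGTGGC). They occurred in 0.883%, 1.16%, 0.367%, 11.9%, 4.2%, 0.105%, 32.0%, 6.57%, 10.9%, 0.0171%, 1.39%, 13.3% and 0.88% of windows in that order, and matches of different motifs may overlap. The shares of matched genes with each motif that were higher by the size rule were, in the same order, 0.0%, 3.12%, 0.0%, 2.03%, 0.917%, 0.0%, 1.23%, 2.62%, 0.853%, 0.0%, 0.683%, 1.8% and 2.0%, against 1.29% of all matched genes. The CArG box (5 of its genes higher), the STAT element (21), TEAD (28), CHR (23) and KLF (3) thus also lay above that share. On the lower side the share of all matched genes was 0.836%. Above it lay the sterol regulatory element (2.38%, 3 genes), the CArG box (1.25%) and TEAD (1.09%). The antioxidant response element (0.914%), the STAT element (0.874%) and the CCAAT box (0.867%) lay just above it. The motifs were compared with no test.

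Both genes of the main type IV collagen and 4 of 37 measured contractile and actin-binding genes were higher by the size rule. COL4A1 and COL4A2 encode the chains of the type IV collagen of basement membranes and lie head to head on chromosome 13 (COL4A1 110148963 to 110307233, minus strand; COL4A2 110305812 to 110513209, plus strand). COL4A1 had 2657 and 7677 reads, 78.0 and 301 CPM, 3.86-fold higher (3.69 to 4.03). COL4A2 had 1478 and 4497 reads, 43.4 and 176 CPM, 4.06-fold higher (3.83 to 4.31). Both neighbours were thus higher by about the same factor. Of 40 measured collagen, laminin and matrix genes, 5 were higher (12.5%) and 3 lower (7.5%), with a median of 0.24. THBS1, which encodes the matricellular protein thrombospondin-1, had 519 and 1519 CPM (1.55), and TGM2, a matrix-crosslinking transglutaminase, had 10.4 and 50.2 CPM (2.17). The 3 that were lower were TGFBI (165 and 49.6 CPM, -1.72), TNC, which encodes tenascin-C (10.4 and 3.29 CPM, -1.41), and COL5A1 (86.5 and 36.2 CPM, -1.24). Matrix genes therefore stood on both sides.

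In the list of EMT factors, cadherins and mesenchymal genes 6 of 23 measured members were higher (26.1%), none was lower, and the median was 0.16. Besides VIM they were FAP, a fibroblast surface protease (320 and 947 reads, 1.87), MMP2, a gelatinase (102 and 292 CPM, 1.51), CDH2, N-cadherin (20.1 and 57.8 CPM, 1.48), FN1, fibronectin (1.39), and AXL, a receptor tyrosine kinase (1.05). CDH1, E-cadherin, stood at 494 and 496 CPM (0.01) and SNAI2, a transcription factor of the transition, at 72.7 and 75.4 (0.05). The summed fibroblast markers given above were higher as well, and their part in this was not tested.

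The 4 contractile genes were 10.8% of their list, in which none was lower by the rule, 26 had ratios above 0 and 11 below, and the median was 0.29. MYL9, a regulatory myosin light chain, had 16.2 and 47.9 CPM, 2.96-fold higher (2.67 to 3.28). TAGLN, the actin-binding protein transgelin, had 41.0 and 114 CPM, 2.79-fold higher (2.61 to 2.97). TPM1, a tropomyosin, had 149 and 406 CPM, 2.72-fold higher (2.63 to 2.81), and CALD1, caldesmon, had 63.5 and 156 CPM (1.28). YAP and TEAD factors and targets showed a median of 0.28, with 3 of 23 higher by the size rule (AXL, NT5E and CCN2) and YAP1 itself at 236 and 252 CPM. ITGB1, the common beta subunit of collagen and fibronectin receptors, stood at 600.0 and 859 CPM (0.52). Beside these groups, 9 measured fibroblast and smooth muscle markers summed to 249 and 389 CPM, with 1 past the size rule (FAP, 11.1%). Of the 9 markers, 8 had ratios above 0, and the median was 0.55. DCN, COL1A2 and PDGFRB had 0 reads in both libraries.

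Secreted proteases stood mostly on the higher side, with 9 of 42 measured members of the protease and inhibitor list past the size rule (21.4%), 2 lower (4.76%) and a median of 0.24. ADAM19, a membrane-bound sheddase, had 63.9 and 222 CPM, 3.48-fold higher (3.31 to 3.66). The kallikreins are serine proteases whose genes lie in a cluster on chromosome 19, and KLK6 there had 21.4 and 76.3 CPM (1.78) and KLK10 had 1.94 and 7.52 CPM (1.54). KLK5, from the same cluster, had 13 and 74 reads, 7.60-fold higher (4.18 to 14.9). KLK9, also of that cluster, passed the size rule on the lower side, with 37 and 0 reads (-1.06). Of its exonic bases 93.7% are shared with another gene. ADAMTS6, a metalloprotease of the matrix, had 5.31 and 18.9 CPM (1.66). SPINK1, a trypsin inhibitor, was lower with 426 and 26 reads, 12.3-fold (8.27 to 19.0).

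In the list of mucins, trefoil factors and epithelial secretion, 5 of 15 measured members were lower by the size rule (33.3%), none was higher, and the median was -0.77. AQP3, the water and glycerol channel of urothelium, had 487 and 176 CPM, 2.76-fold lower (2.67 to 2.86). SCNN1G, the gamma subunit of the epithelial sodium channel, had 16.3 and 5.05 CPM, 3.23-fold lower (2.66 to 3.94). AGR2, a disulfide isomerase that mucin folding needs, had 29.9 and 7.44 CPM, 4.02-fold lower (3.44 to 4.72), and MUC1 had 8.63 and 3.72 CPM (-1.03). CLCA2, of the same list, had 501 and 536 reads (0.49). Outside that list, SLC14A1, a urea transporter expressed in the bladder, had 67.7 and 14.4 CPM, 4.71-fold lower (4.22 to 5.28). SUCNR1, the receptor for succinate, had 256 and 76.9 CPM, 3.33-fold lower (3.17 to 3.50).

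Uroplakins and luminal regulators had 5 of 29 members lower (17.2%), none higher, 27 with ratios below 0, and a median of -0.56. SNX31 and SPTSSB, whose values are given in other paragraphs, are among the 5, and SPTSSB is also counted in the sphingolipid list. PSCA, a surface antigen of urothelium, had 233 and 94.4 CPM (-1.29), while the luminal factors GATA3 (280 and 238 CPM), PPARG (199 and 172 CPM) and FOXA1 (162 and 95.4 CPM) did not pass the size rule. Of 14 keratins 1 was lower, KRT15 (22.2 and 9.90 CPM, -1.09), and KRT17, a basal keratin, stood at 722 and 1106 CPM (0.61). Among 21 tight junction genes the median was -0.31.

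**Figure D3:**
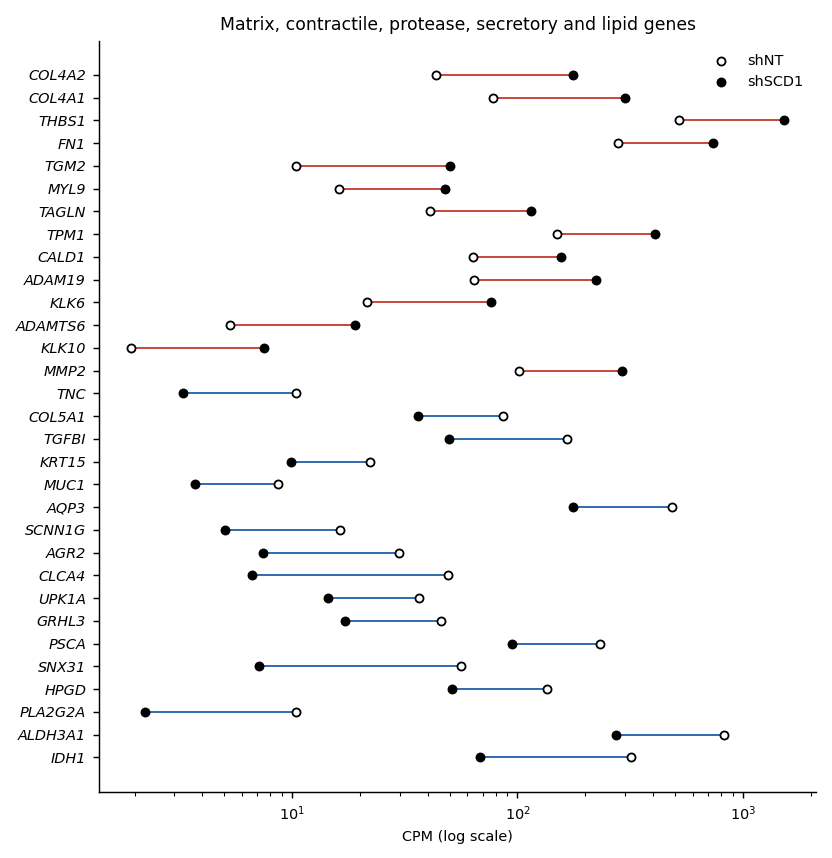
CPM (log axis) in the SW780 shNT library (open) and shSCD1 library (filled) of 31 matrix, contractile, protease, secretory, urothelial and lipid genes, joined by a red line where higher and a blue line where lower by the size rule. COL4A1, from 78.0 to 301 CPM, and AQP3, from 487 to 176 CPM, stand on opposite sides.

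Beyond SCD itself, genes of lipid metabolism differed in few places. In fatty acid synthesis and desaturation SCD was the only one of 23 measured genes past the size rule, with a median of -0.07. FADS1, the delta-5 desaturase, stood at 220 and 149 CPM (-0.56), FADS2, the delta-6 desaturase, at 19.7 and 23.9 (0.27), and FASN, the fatty acid synthase, at 344 and 284 (-0.28). Cholesterol synthesis and uptake had a median of -0.38, with 22 of 24 members below 0 and MSMO1, a sterol methyl oxidase, at the rule's edge (79.9 and 39.4 CPM, 2.03-fold lower).

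In sphingolipid synthesis 1 of 30 genes passed: SPTSSB, a small subunit of serine palmitoyltransferase, with 354 and 40 reads, 6.63-fold lower (4.78 to 9.45). Eicosanoid genes stood on both sides. PLA2G2A, a secreted phospholipase that frees fatty acids, had 10.4 and 2.23 CPM (-1.81), and HPGD, which inactivates prostaglandins, had 135 and 51.3 CPM, 2.64-fold lower (2.48 to 2.81). ALOX5AP, which presents arachidonate to 5-lipoxygenase, had 47 and 244 reads, 6.93-fold higher (5.05 to 9.68), and PTGS2, cyclooxygenase-2, stood at 302 and 380 CPM (0.33). FABP4, a fatty acid carrier, had 445 and 93.3 CPM (-2.24). Its list, of FABP carriers and PPAR targets, had a median of -0.05.

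IDH1, the cytosolic isocitrate dehydrogenase that makes NADPH, had 10909 and 1751 reads, 320.0 and 68.5 CPM, 4.67-fold lower (4.44 to 4.91), and was the only 1 of 17 cytosolic NADPH and folate genes past the size rule. IDH2, its mitochondrial counterpart, stood at 68.3 and 120 CPM (0.81). Among 25 measured xenobiotic enzymes 4 were lower by the size rule (16.0%), 1 was higher (4.0%), and the median was -0.33. These include UGT1A7 (lower) and UGT1A8 (higher), a pair described further on. ALDH3A1, an aldehyde dehydrogenase, had 826 and 273 CPM, 3.03-fold lower (2.95 to 3.11), and CYP2S1, a cytochrome P450, had 2357 and 742 reads (-1.22). AKR1C1, AKR1C2 and AKR1C3, near-identical reductases between which reads may be split, had log2 ratios of -0.92, -0.97 and -0.87. AHR, the aryl hydrocarbon receptor, had 86.3 and 39.4 CPM (-1.11), with 32.3% of its exonic bases shared.

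In several other lists 1 to 3 members passed the size rule. CP, the copper ferroxidase ceruloplasmin, had 171 and 14 reads (-1.96) and was the 1 of 24 iron handling genes past the rule (median -0.15), and MT2A, a metallothionein, had 1920 and 3321 reads (1.19). Of 15 complement components and regulators 2 were lower (13.3%) and none was higher: C1S, a protease of the classical pathway, had 10.8 and 3.29 CPM (-1.46), and CLU, the chaperone clusterin, had 293 and 145 CPM, 2.01-fold lower. Of 20 TNF superfamily genes 2 were higher (10.0%): TNFSF18, the ligand of GITR, had 54 and 304 reads, 7.51-fold higher (5.61 to 10.2), and EDAR, the ectodysplasin receptor, had 23 and 67 reads (1.11). PLK2, a p53-responsive kinase, had 482 and 207 CPM (-1.21) while CDKN1A stood at 309 and 298. Of 29 semaphorin and axon guidance genes 2 were lower (6.9%) and 1 was higher (3.45%): SEMA3A, a secreted semaphorin, had 1751 and 512 reads (-1.32), UNC5B, a netrin receptor, 1135 and 368 (-1.16), and DPYSL5, a collapsin response mediator, 193 and 359 (1.18).

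Signalling ligands and receptors had few members past the size rule. In the Wnt list 2 of 30 were higher and 1 lower: LEF1, a transcription factor of that pathway, had 73 and 140 reads (1.04), WNT5B, a ligand, had 9 and 51 reads (1.25), and PRICKLE1, of the planar polarity branch, had 351 and 88 reads (-1.35). Among 38 receptor tyrosine kinases and ligands only AXL passed, while EGFR stood at 673 and 512 CPM (-0.40) and FGFR3 had a log2 ratio of -0.07. Of 28 chemokines, cytokines and NF-kB genes, CXCL10, an interferon-induced chemokine, had 72 and 161 reads (1.23), IL32 had 290 and 584 reads (1.33), and CXCL8 stood at 99.9 and 121 CPM (0.27). PPARGC1B, a coactivator of mitochondrial genes, had 766 and 256 reads (-1.09) and was the only one of 55 nuclear oxidative phosphorylation list members past the rule. DNAJB4, an HSP40 chaperone, had 1893 and 538 reads, 2.64-fold lower (2.40 to 2.91), while HSPA1A stood at 341 and 350 CPM (0.04).

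In several large groups no member passed the size rule: 32 proteasome genes (median 0.02), 76 cytosolic ribosomal proteins (-0.05), 30 ER chaperone and ERAD genes (0.02), 32 ATF4 and stress response genes (0.10), 32 peroxisome genes (-0.12), 45 mitosis genes (0.18) and 41 DNA replication genes (0.13). In some the signs were uneven: 42 of the 45 mitosis genes (93.3%) and 34 of the 41 replication genes (82.9%) had ratios above 0, against 48.5% of all genes, and 28 of the 32 peroxisome genes were below 0. MAPK feedback and immediate early genes had 0 of 27 past it, although EGR1 (13.5 and 6.42 CPM, -0.97), DUSP1 (-0.92) and SPRY4 (-0.79) lay near it and JUN stood at 0.84. Counts of 0 here say that no member reached 2-fold on this scale.

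**Figure D4:**
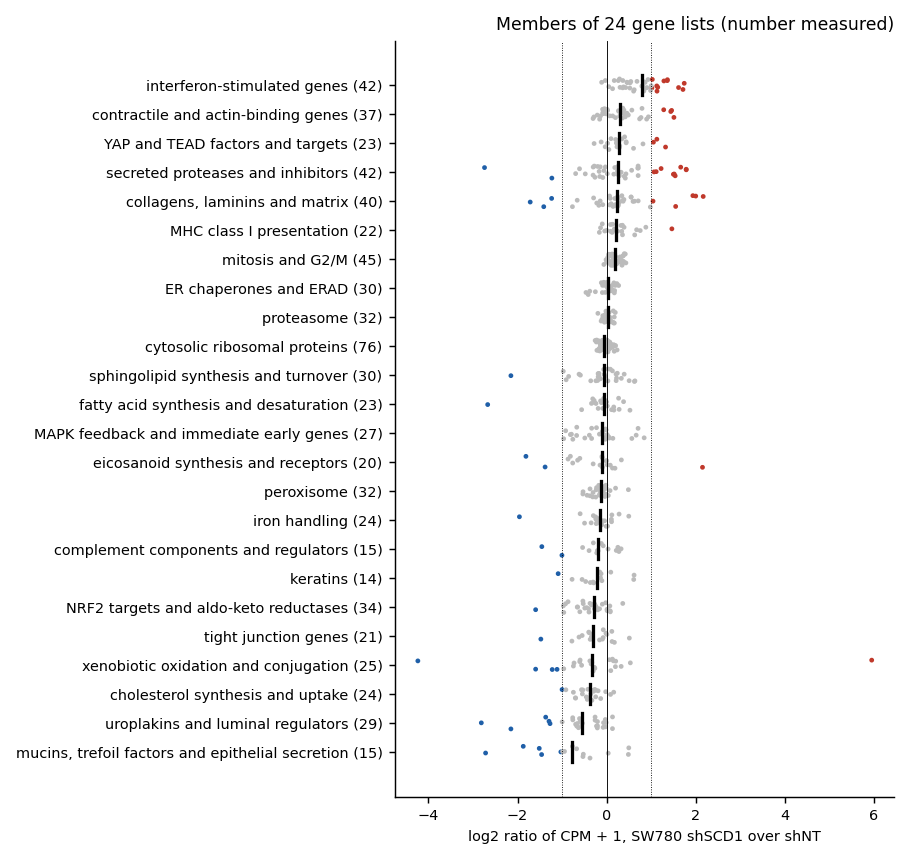
Log2 ratios (CPM + 1, SW780 shSCD1 over shNT) of the members of 24 gene lists, 1 point a gene (height within a row is arbitrary) and black bars at the medians, which run from -0.77 for mucins, trefoil factors and epithelial secretion to 0.80 for interferon-stimulated genes. Dotted lines mark the size rule, and coloured points passed it.

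Some large ratios belonged to pairs of gene models that share exons and mirrored each other. UGT1A7 had 1818 and 48 reads and UGT1A8, which shares its 3′ exons, 10 and 2012, while their sum was 53.6 and 80.6 CPM (0.58). BCAP29 had 1214 and 273 reads and the read-through DUS4L-BCAP29 had 114 and 864, with a sum at a ratio of 0.19. In neither of these 2 pairs did the sum pass the size rule. BEST1, a chloride channel gene that shares 14.2% of its exonic bases with FTH1, had 1615 and 22 reads, and in UMUC3 cells it had 1589 and 31. FTH1 had a log2 ratio of -0.35 in SW780, and whether reads were split between FTH1 and BEST1 was not tested.

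In UMUC3, SCD had 264 and 59.6 CPM (-2.13), and by the same rule 2.47% of 14063 genes were higher and 2.18% lower. Of the SW780 genes past the size rule, 177 were also kept in UMUC3: 21 were lower and 4 higher in both lines, 17 passed in opposite directions, and 135 did not pass in UMUC3. The interferon-stimulated genes had a median of 0.80 in SW780 and -0.66 in UMUC3, with 21 of the 29 kept in both above 0 here and below 0 there. COL4A1 (1.93 and -0.29), COL4A2 (2.00 and -0.41) and ADAM19 (1.78 and 0.00) were past the rule in SW780 alone, and TGFBI (-1.72 and -1.30), TNC (-1.41 and -1.44) and PLK2 (-1.21 and -1.98) were lower in both. The difference between the lines was not tested.

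**Figure D5:**
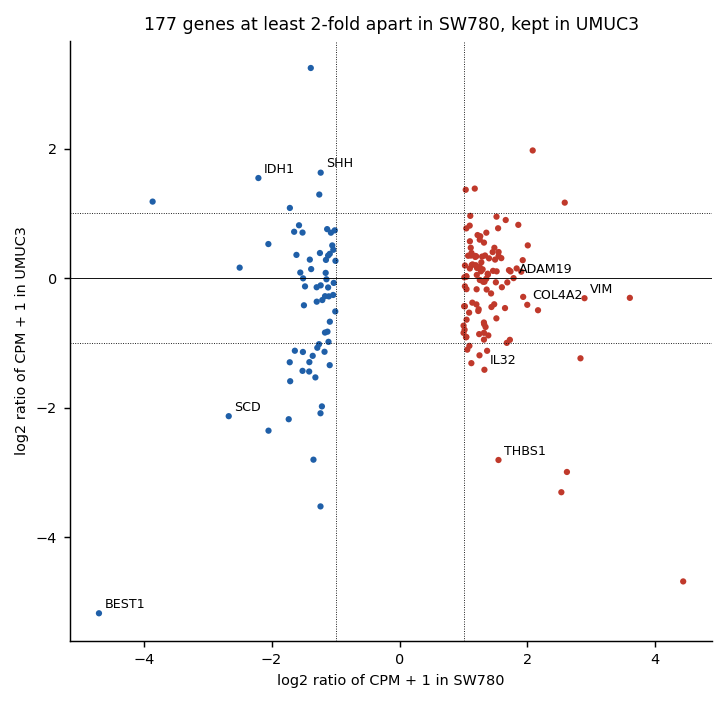
Log2 ratios (CPM + 1, shSCD1 over shNT) in SW780 (horizontal) and UMUC3 (vertical) of the 177 genes past the size rule in SW780 and kept in UMUC3, red where higher and blue where lower in SW780; dotted lines mark the size rule. SCD lies at -2.67 and -2.13, and THBS1 at 1.55 and -2.81.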

How the data were processed

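RNA of SW780 and UMUC3 cells was taken up in Trizol and sequenced from TruSeq libraries on a NovaSeq instrument, per the labels' protocols. The submitters' processing notes name hg38. Of the aligner, read counter, annotation and strand use, none is given in the sources used here. The authors deposited 1 table a line, with a GFOLD value at a setting of 0.01 and a log2 fold change, per the file headers. The deposited empirical FDR, a q-value, is 1 throughout and was not used. The deposited signal, headed RPKM, is reads scaled to 1 total with no gene length: 100% of values up to 20 reads lay within 0.1 of a whole read, so whole reads were recovered and CPM computed from them. The second column was read as shSCD1 from the table's name and ratio, and SCD is the only check of that reading.

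Genes reaching 1 CPM in a library were kept, 1 CPM was added before log2, and 0 reads allow up to 3. Nearest that threshold were EFR3B inside (0.557 and 1.02 CPM) and PPFIA4 outside (0.997 and 0.979 CPM). Recovery and intervals were tested on simulated data. Named genes were SCD, the 20 highest and 20 lowest with at least 5 CPM (leaving out non-coding, read-through and strongly overlapping entries), and up to 6 members past the size rule in each of 62 lists plus members marked there. The members and lists were chosen with earlier results of these data known; SCD5, EPCAM, RSAD2, SAMD9, KLK5, USP18, IFI44L, ISG20, the 14 motifs, the printed promoters and the gene-model pairs were chosen after values were seen. Some genes that the naming takes are not reported here. Positions and overlaps came from GENCODE 29. Recovered reads of both lines, with line as a block, were tested with edgeR 4.0.16 (quasi-likelihood) and DESeq2 1.42.0. Python 3.11.15 was used.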

Additional observations from a re-analysis of the deposited data

Results flagged for a closer look

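For 5 named genes the libraries of the 2 lines stood past the size rule in opposite directions; with 1 library a group, the difference between the lines was not tested. IDH1 had a log2 ratio of -2.21 in SW780 (320.0 and 68.5 CPM) and 1.55 in UMUC3 (22.3 and 67.1 CPM). SHH, which encodes the ligand sonic hedgehog, had -1.23 (4.02 and 1.14 CPM) and 1.63 (0.833 and 4.67 CPM). IFIT1 had 1.12 in SW780 and -1.31 in UMUC3, where it stood at 5.30 and 1.54 CPM. IL32, a cytokine gene, had 1.33 and -1.42, with 20.6 and 7.10 CPM in UMUC3. THBS1 had 1.55 in SW780 and -2.81 in UMUC3, where it had 319 and 37 reads.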

How the results depend on the processing

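The SCD ratio of -2.67 lay between -2.69 and -2.61 under the alternatives, the latter being the authors' deposited GFOLD value. The counts of 191 higher and 136 lower genes became 77 and 65 with 5 CPM added and 396 and 236 with the authors' deposited log2 fold change, which adds no CPM; with the other settings they ran from 141 to 277 and from 102 to 174. Leaving out entries with at least 25% shared exonic bases, an alternative chosen after seeing the data, gave 159 and 107. Sign changes were sought in the scaling, added-CPM, deposited-value and length and GC alternatives run. No named gene past the size rule and no list median of at least 0.1 in size changed sign in them. Of 2613 values of named genes, 262 moved by more than counting error. Of 496 list medians, 38 moved by more than the typical counting error of a single member, which is not the error of the median itself. Within a line no test was possible because each line has 1 library a group. With the libraries paired by line, edgeR's quasi-likelihood test called 1 of 11152 genes at an adjusted p under 0.05, and DESeq2 called 29. The edgeR call was BEST1, lower (quasi-likelihood adjusted p = 0.0326), and 382 genes had an unadjusted p under 0.05 in that test. Both tests take the knockdown effect as shared by the lines. They are therefore not suited to genes such as the 17 that passed the size rule in opposite directions. Depth limits genes near the floor of 3 reads, 0.088 CPM in the shNT and 0.117 CPM in the shSCD1 library.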
